A study of Mus musculus with 20 samples.

Results

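The genes described here are 7 liver genes that make and activate polyunsaturated fatty acids (PUFAs): the desaturases Fads1 and Fads2, the elongases Elovl2 and Elovl5, and the long-chain acyl-CoA synthetases Acsl1, Acsl3 and Acsl5. They were chosen by name, with earlier results of these data known, and are 7 of the 46078 genes in the table of counts. All 7 passed the filter on low counts. mRNA was sequenced from the livers of 20 male mice that carried a deletion of Cse (also called Cth), on a 129/C57BL/6 background, and that were at least 9 weeks old when the diets began. Cse encodes cystathionine gamma-lyase, the last enzyme by which cysteine is made from methionine, so that mice without it depend on dietary cysteine. Mice with a remaining allele are called Cse+/- here, because the list of mice in the study gives them as heterozygous, although the sample labels call them WT. All mice had first received a calorie-restricted control diet, and livers were taken 2 days after the shift to a calorie-restricted test diet. Cse+/- mice received the complete amino acid diet 5CC7 (control, n = 2), the same diet without cysteine (no-Cys, n = 4) or without tryptophan (no-Trp, n = 3). Of the Cse-/- mice, 4 were fed no-Cys, 3 no-Trp, and 4 no-Trp to which BSO had been added. BSO (l-buthionine sulfoximine) blocks the first enzyme of glutathione (GSH) synthesis. No library of Cse-/- mice on the control diet was analysed here, so that the genotypes can be compared on the 2 deficient diets alone.

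Mammals cannot make linoleic and alpha-linolenic acid, and take them from food. In the liver these acids are first activated to acyl-CoA by long-chain acyl-CoA synthetases, which consume ATP and free CoA, a cofactor whose synthesis itself requires cysteine. FADS2 then inserts a double bond, ELOVL5 adds carbon atoms, FADS1 inserts a further double bond to give arachidonic or eicosapentaenoic acid, and ELOVL2 carries the longest chains onwards to docosahexaenoic acid. The products enter membrane phospholipids and triglycerides. Transcription of desaturases and elongases in liver is known to be driven by the sterol regulatory element binding protein SREBP-1, with contributions of the liver X receptors and PPAR-alpha. The present data measure mRNA and hold no fatty acid, CoA or enzyme activity.

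Counts on genes ranged from 11785740 to 57986121 per library. Levels are given as CPM, counts scaled to library size with edgeR's TMM factors, and a gene is called changed where edgeR's quasi-likelihood test, fitted to all 20 libraries and adjusted over 14759 genes by the Benjamini-Hochberg method, gave an adjusted p under 0.05. The knocked-out gene followed the labels, with Cth at 88.4 to 332 CPM in Cse+/- and 6.37 to 14.4 CPM in Cse-/- livers. Each library is called by the number of its mouse, av01 to av22. In chi-square per gene between replicates, av08 stood apart from the other Cse-/- no-Cys livers (43.3 to 48.9, against 9.60 to 16.3 among the others), and av01 to a lesser degree from the other Cse+/- no-Cys livers (26.9 to 49.8, against 15.1 to 23.6). The lowest count of any of the 7 genes in any liver was 107, for Acsl3, whose counts ran up to 884, and each of the other 6 genes had at least 1652 counts in every liver. Markers of hepatocytes, such as albumin, were abundant in every liver and summed to 46180 CPM or more.

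Fads1 (ENSMUSG00000010663) lies on the plus strand of chromosome 19 of GRCm38 from 10182888 to 10196877, and Fads2 (ENSMUSG00000024665) on the minus strand of the same chromosome from 10062765 to 10101746. The pair is divergent, with 81142 bases between their first annotated bases. Acsl5 (ENSMUSG00000024981) is also on chromosome 19, from 55251938 to 55297720 on the plus strand. Elovl2 (ENSMUSG00000021364) spans 41182381 to 41220405 on the minus strand of chromosome 13, and Elovl5 (ENSMUSG00000032349) spans 77917364 to 77984519 on the plus strand of chromosome 9. Acsl1 (ENSMUSG00000018796) lies on the plus strand of chromosome 8 from 46471037 to 46536051, and Acsl3 (ENSMUSG00000032883) on the plus strand of chromosome 1 from 78657825 to 78707743. No exon base of the desaturases and elongases is shared with another annotated gene. In Acsl1 9.91% of exon bases overlap the antisense gene Gm45244, in Acsl5 8.31% overlap the antisense gene Zdhhc6 and in Acsl3 5.60% overlap Utp14b on the same strand. The sources used here do not say whether the counting used the strand, so that reads from those stretches cannot be assigned with certainty.

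The 250 bases before the start sites in RefSeq (GRCm38.p6) were searched for 6 short motifs on both strands. These were the sterol regulatory element TCACNCCAC, the E-box CACGTG, the CCAAT box CCAAT, the nuclear receptor half-site AGGTCA, the antioxidant response element TGACNNNGC and the ATF4 element TGATGNAA. The table of promoters held 8 start sites of 6 of the genes, and Fads1 is only named. The windows with a match are shown because they belong to genes whose mRNA fell in Cse-/- livers on the no-Cys diet. Capitals mark the matches, read 5' to 3' along the strand of the gene.
Elovl5, chr9:77917115-77917364, plus strand: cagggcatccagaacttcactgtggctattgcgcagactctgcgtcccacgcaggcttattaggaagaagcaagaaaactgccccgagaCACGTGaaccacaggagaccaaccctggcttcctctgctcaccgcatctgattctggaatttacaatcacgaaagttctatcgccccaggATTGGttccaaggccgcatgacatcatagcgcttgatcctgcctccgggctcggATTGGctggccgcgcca
Acsl1, the downstream start site, chr8:46490716-46490965, plus strand: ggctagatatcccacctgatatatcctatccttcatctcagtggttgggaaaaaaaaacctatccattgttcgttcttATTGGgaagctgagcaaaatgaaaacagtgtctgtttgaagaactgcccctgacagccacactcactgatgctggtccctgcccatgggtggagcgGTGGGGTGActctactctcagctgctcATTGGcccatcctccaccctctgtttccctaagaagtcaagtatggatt
Acsl3, chr1:78657575-78657824, plus strand: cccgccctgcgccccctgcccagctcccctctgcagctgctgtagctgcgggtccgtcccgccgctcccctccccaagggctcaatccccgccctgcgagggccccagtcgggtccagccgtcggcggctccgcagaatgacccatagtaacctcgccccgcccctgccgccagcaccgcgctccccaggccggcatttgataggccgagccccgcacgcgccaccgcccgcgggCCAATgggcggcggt
Acsl5, chr19:55253119-55253368, plus strand: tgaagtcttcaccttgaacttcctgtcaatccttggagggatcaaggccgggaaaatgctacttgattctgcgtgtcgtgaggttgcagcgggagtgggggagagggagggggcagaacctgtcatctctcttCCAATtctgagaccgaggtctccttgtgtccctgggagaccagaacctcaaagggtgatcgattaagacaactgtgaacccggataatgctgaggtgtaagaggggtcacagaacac

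The Elovl5 window held an E-box 161 bases before the start site, and 2 CCAAT boxes on the opposite strand at 71 and 17 bases. E-boxes were present in 6.02% of the 32851 windows of the table. The downstream Acsl1 window lies in an intron of the longer Acsl1 transcripts. It held the single sterol regulatory element found in the 8 windows searched, 76 bases before the start site on the opposite strand. That element lay between 2 CCAAT boxes at 172 and 49 bases. A sterol regulatory element was found in 346 of all windows (1.05%). The windows of Acsl3 and Acsl5 each held a CCAAT box on the strand of the gene, at 15 and 117 bases, a motif that 33.8% of all windows share. The upstream Acsl1 window, both Elovl2 windows and the Fads2 window held none of the 6 motifs, and 243 of the 250 bases of the Fads2 window lie in an exon of the annotation used for the counts here. The half-site, the antioxidant response element and the ATF4 element, which occur in 14%, 10.2% and 3.45% of all windows, were in none of the 8. No match overlapped another. A match is a run of letters, not evidence of binding, and gene counts do not separate transcripts from the 2 start sites of Acsl1. The Acsl5 window too lies inside the annotated gene, in an intron of 2 longer Acsl5 transcripts, and so is not the promoter of all of them.

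Per kilobase of exon, Acsl1, the main synthetase of hepatocytes, averaged 121 CPM per kb over all 20 livers, with a range of 62.4 to 187. Its group mean was the highest of the 7 genes in 5 of the 6 groups, although close to that of Elovl5 in Cse+/- no-Cys livers (132 against 131 CPM per kb). In Cse-/- no-Cys livers Acsl1, with 78.3 CPM per kb, had a lower mean than Elovl2 (89.2) and Fads2 (81.9). That order depends on the length used, which joins all annotated exons of a gene. It was 10483 bases for Acsl1 and 3295 to 4864 bases for the other genes. In CPM, not divided by length, Acsl1 was at 821 in this group, Elovl2 at 354 and Fads2 at 270. Over all 20 livers the desaturases and Elovl2 came next after Acsl1, with means of 94.9 CPM per kb for Fads2, 91.2 for Elovl2 and 89.8 for Fads1. Their ranges overlapped almost completely, and these levels cannot be ordered. Elovl5 averaged 69.7 CPM per kb over the widest range of the 7 genes, from 31.1 to 172. Acsl5, a synthetase of the mitochondrial outer membrane and endoplasmic reticulum, averaged 49.0 CPM per kb. Acsl3, a synthetase of the endoplasmic reticulum and lipid droplets, stood far below the others with 3.89 CPM per kb, and its highest liver (6.39) was below the lowest liver of every other gene.

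**Figure D1:**
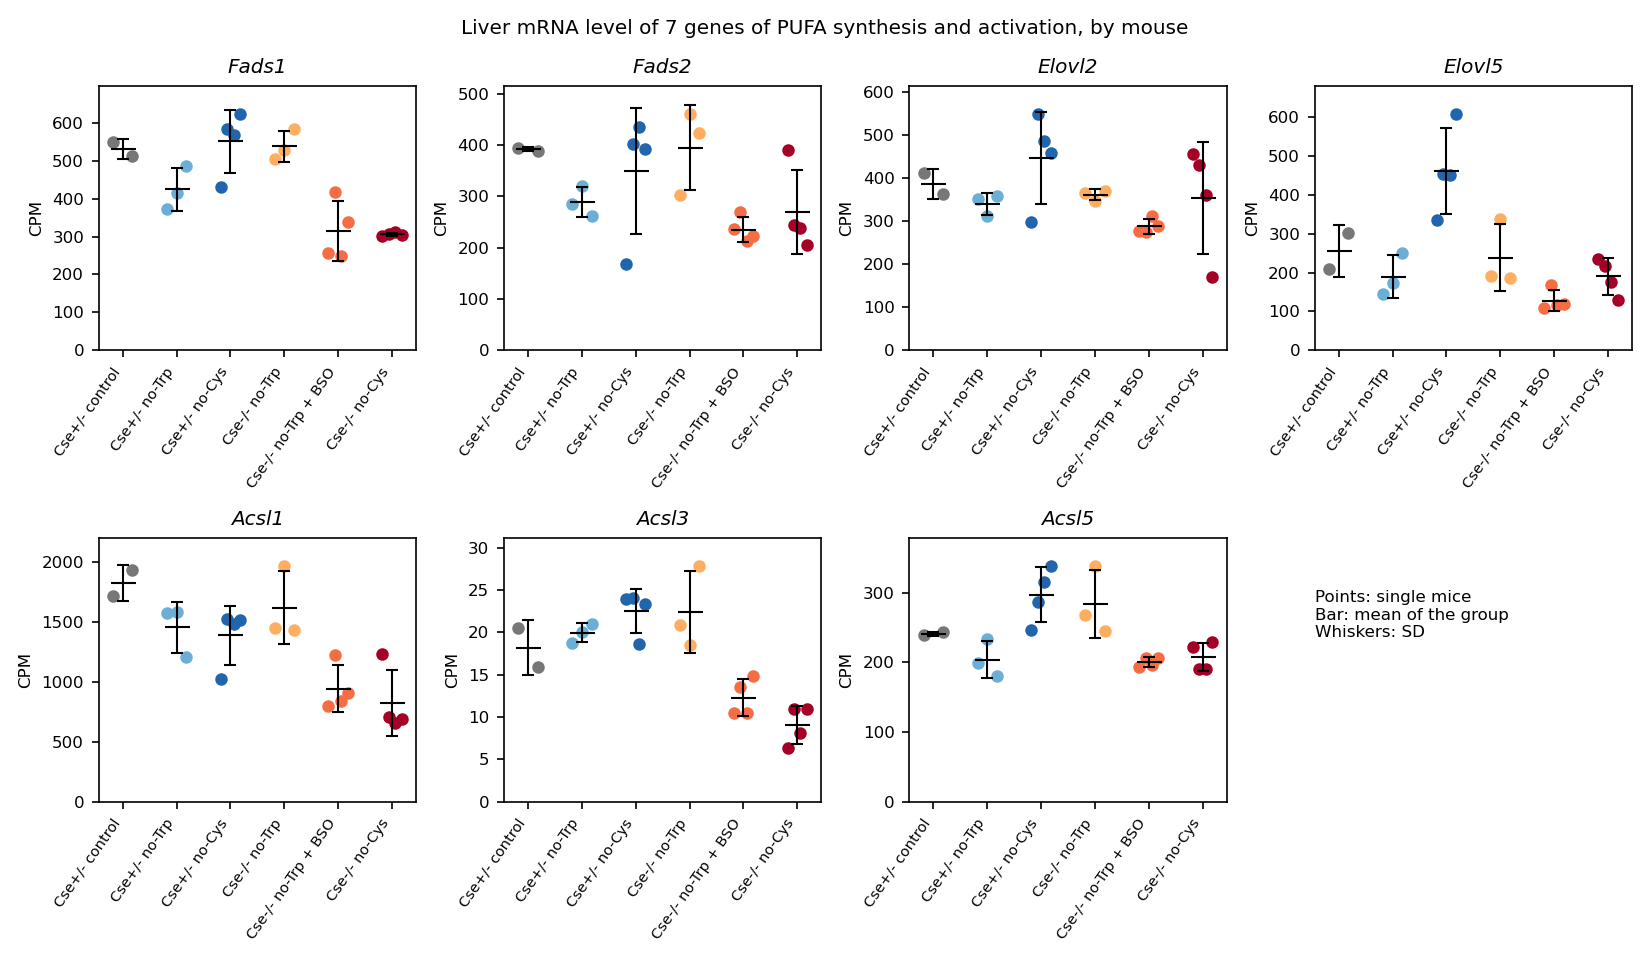
mRNA level in CPM (linear axis from 0) of each of the 7 genes in 6 groups of genotype and diet, with a point for each mouse, a bar at the group mean and whiskers of 1 SD. Cse-/- livers on the no-Cys diet and on the no-Trp diet with BSO are the lowest 2 groups for Fads1, Acsl1 and Acsl3, while Elovl5 is highest in Cse+/- livers on the no-Cys diet (334 to 607 CPM).

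Setting Cse-/- against Cse+/- livers under the no-Cys diet asks what follows in the liver when cysteine can be neither eaten nor made. In Cse-/- livers 5 of the 7 genes fell and none rose: Acsl3, Elovl5, Fads1, Acsl1 and Acsl5. Of all genes tested, 23.8% were called in this comparison, with 12.2% lower. The median log2 fold change of the 7 genes was -0.76, against -0.01 over all genes. For 4 of the 7 genes the lowest Cse+/- liver was above the highest Cse-/- liver, which held for 11.2% of all genes.

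Fads1, the delta-5 desaturase that forms arachidonic acid, was at 430.2, 584, 568 and 623 CPM in Cse+/- livers and at 301, 306, 311 and 305 CPM in Cse-/- livers. The groups did not overlap, and the Cse-/- livers were nearly identical, with 306 ± 4.33 CPM (SD, n = 4) against 551 ± 83.9 CPM (SD, n = 4). The log2 fold change was -0.85 ± 0.143 (SE), with an edgeR adjusted p of 0.00034. Fads2, the delta-6 desaturase at the entry of the pathway, gave 169, 403, 435 and 393 CPM in Cse+/- livers and 391, 245, 239 and 205 CPM in Cse-/- livers. The groups overlapped because of av01, the lowest of all 20 livers, and av05, the highest Cse-/- liver, came just below the other 3 Cse+/- livers. The log2 fold change of Fads2 was -0.37 (95% interval -0.85 to 0.10, edgeR adjusted p = 0.247), an interval whose lower end nearly equals the estimate for Fads1. With each liver left out it ranged from -0.60 to -0.25, with adjusted p up to 0.497, and it was called only when av01 was the liver left out (adjusted p = 0.0175). The difference between Fads1 and Fads2 was not tested.

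Among the elongases, Elovl5 acts on the products of FADS2 and was at 334, 453, 450.0 and 607 CPM in Cse+/- and at 235, 218, 176 and 131 CPM in Cse-/- livers. Every Cse-/- liver was below every Cse+/- liver. Elovl5 fell to 0.412 of its Cse+/- level, a log2 fold change of -1.28 ± 0.237 (SE) with an edgeR adjusted p of 0.000735. Elovl2, which extends the longest PUFAs, was at 298, 548, 485 and 458 CPM in Cse+/- and at 455, 431, 360.1 and 170 CPM in Cse-/- livers. These groups overlapped, with av01 the lowest of the Cse+/- and av08 the lowest of all livers. The log2 fold change was -0.34 (95% interval -0.78 to 0.10, edgeR adjusted p = 0.261), and between -0.49 and -0.11 when each liver was left out in turn, the smallest without av08. The calls of the other 5 genes were kept without av08 and without av01.

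All 3 synthetases fell. Acsl3 was at 24.0, 24.0, 18.7 and 23.4 CPM in Cse+/- livers and at 6.32, 10.9, 8.13 and 10.9 CPM in Cse-/- livers, with a clear gap between the groups. Its log2 fold change of -1.32 ± 0.175 (SE), to 0.401 of the Cse+/- level, had the lowest adjusted p of the 7 genes (3.54e-05, edgeR). Acsl1, which feeds fatty acids to both oxidation and triglyceride synthesis, was at 1022, 1523, 1482 and 1518 CPM in Cse+/- livers and at 1229, 708, 655 and 692 CPM in Cse-/- livers. Again av01 and av05 made the groups overlap, while the other 3 livers of each group were far apart. Acsl1 fell with a log2 fold change of -0.76 ± 0.194 (SE, edgeR adjusted p = 0.00793), which was -0.64 to -1.01 with each liver left out and kept its call each time. Acsl5 was at 246, 287, 315 and 338 CPM in Cse+/- livers and at 222, 190, 191 and 228 CPM in Cse-/- livers. These groups did not overlap, and the fall was the smallest of those called, with a log2 fold change of -0.51 ± 0.115 (SE, edgeR adjusted p = 0.00302).

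In bulk liver, fewer cells of a type and less RNA per cell cannot be told apart. Hepatocyte markers also differed in this comparison, with 4 of 8 lower and 1 higher, and their summed level was 46180 to 73730 CPM in Cse-/- against 89730 to 115500 CPM in Cse+/- livers. Blood cell markers were lower for 6 of 8 genes (75.0 to 119.8 CPM summed, against 208 to 416 CPM), cholangiocyte markers for 2 of the 5 tested (16.4 to 28.8 against 46.1 to 58.0 CPM), macrophage markers for 3 of 10 (319 to 375 against 377 to 466 CPM) and stellate cell markers for 2 of 6 (185 to 226 against 233 to 280 CPM). Of 6 endothelial markers 1 was higher, no adipocyte marker of the 4 tested was called, and no pancreas marker had enough counts for a test. At least 1 count of every marker was seen apart from 1 adipocyte gene, which had none in any liver. The part of these shifts in the result was not tested.

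**Figure D2:**
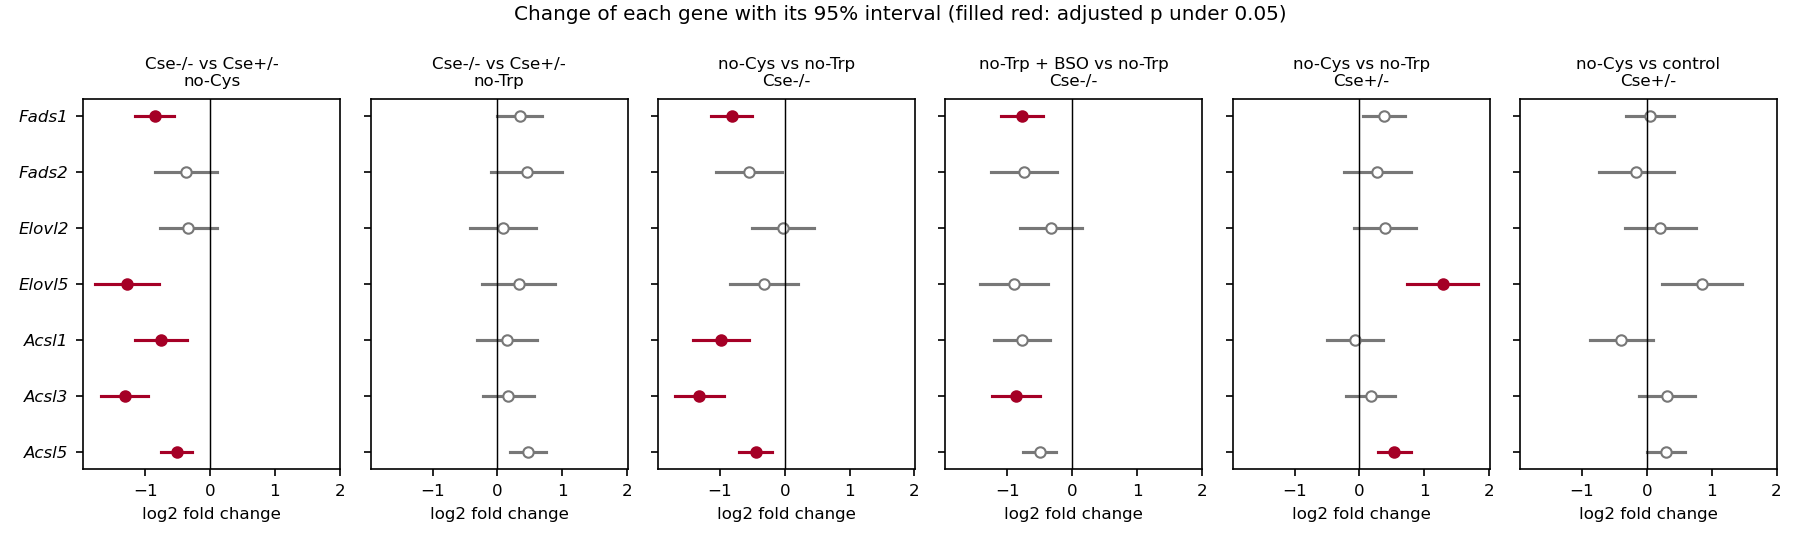
log2 fold change of each gene (points) with its 95% interval (lines) in 6 comparisons, with filled red points for an edgeR adjusted p under 0.05. The 5 called genes of the first panel have intervals wholly below 0, in the no-Trp panel of the same genotypes 6 of the 7 intervals include 0 and no gene is called, and in the BSO panel all 7 estimates are below 0.

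The same genotypes on the no-Trp diet ask whether the lack of another amino acid has the same effect. None of the 7 genes was called, against 2.64% of all genes, and the median log2 fold change was 0.33. At an unadjusted p under 0.05 there was 1 gene, Acsl5, which was also called by DESeq2. Acsl5 was at 268, 338 and 245 CPM in Cse-/- livers and at 199, 233 and 180 CPM in Cse+/- livers. All 3 Cse-/- livers were above the Cse+/- livers, the opposite order to that on the no-Cys diet, with a log2 fold change of 0.48 (95% interval 0.20 to 0.75, edgeR adjusted p = 0.059). Fads1 was at 504, 528 and 583 CPM against 373, 414 and 487 CPM, likewise without overlap (log2 fold change 0.34, 95% interval -0.00135 to 0.69, edgeR adjusted p = 0.273). For these 2 of 7 genes the groups did not overlap, as for 19.6% of all genes. For Elovl5, Acsl3 and Acsl1 the intervals of -0.24 to 0.89, -0.22 to 0.56 and -0.31 to 0.62 exclude falls of the size estimated on the no-Cys diet. The intervals of Fads1 and Acsl5 above do so too. Fads2 and Elovl2 had no called fall on the no-Cys diet. No cell type marker was called by edgeR here, but the summed levels were lower in Cse-/- livers without overlap for hepatocyte (69720 to 76730 against 78890 to 89900 CPM), blood cell (128 to 192 against 219 to 270.0 CPM), cholangiocyte (27.6 to 46.2 against 48.3 to 62.4 CPM) and adipocyte markers (6.09 to 20.3 against 34.2 to 40.9 CPM). Albumin carried most of the hepatocyte sum (group means of 47460 against 57010 CPM), and 3 of the 8 hepatocyte markers had log2 fold changes above 0. Plin4 carried most of the adipocyte sum (group means of 7.59 against 26.7 CPM), and 1 of the 4 adipocyte markers tested was above 0. The part of these shifts was not tested.

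The interaction of genotype and diet tests that difference directly, as the genotype effect on the no-Cys diet minus that on the no-Trp diet. All 7 estimates were below 0 and 4 of them were called, where 4.36% of all genes were called and 2.69% were called below 0. The log2 difference was -1.61 ± 0.359 (SE) for Elovl5 (edgeR adjusted p = 0.0154) and -1.49 ± 0.256 (SE) for Acsl3 (0.0031). For Fads1 it was -1.19 ± 0.218 (SE, edgeR adjusted p = 0.00436), and for Acsl5 -0.99 ± 0.175 (SE, 0.0037). Acsl1 gave -0.91 (95% interval -1.53 to -0.29, edgeR adjusted p = 0.085), Fads2 -0.83 (-1.55 to -0.10, 0.191) and Elovl2 -0.42 (-1.10 to 0.25, 0.506). With each liver left out, Acsl1 ranged from -1.15 to -0.74 and was called without av01 or av05, and Fads2 ranged from -1.05 to -0.70 and was called without av01. Acsl1 was also called by DESeq2 (adjusted p = 0.0352) and without the filter on low counts (0.0244).

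The no-Trp diet with BSO asks what a block of GSH synthesis adds to the lack of an amino acid other than cysteine. Within Cse-/- mice, every liver with BSO was below every liver without it for each of the 7 genes, although only 2 of the 7 differences passed the test. Such a gap with the BSO group lower was seen in 6.13% of all genes. The median log2 fold change was -0.77, against -0.00483 over all genes. Fads1 and Acsl3 were called lower, in a comparison with 0.793% of all genes called and 0.305% called lower. At an unadjusted p under 0.05 there were 6 genes, all but Elovl2.

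Fads1 was at 256, 418, 249 and 338 CPM with BSO and at 504, 528 and 583 CPM without it. The log2 fold change was -0.77 ± 0.153 (SE, edgeR adjusted p = 0.0181). Acsl3 was at 10.4, 13.5, 10.5 and 14.8 CPM with BSO and at 20.9, 18.5 and 27.8 CPM without it, a log2 fold change of -0.87 ± 0.177 (SE, edgeR adjusted p = 0.0227). For both genes the difference of the group means was larger than the SD of either group, yet both calls depended on single livers. Neither gene was called without av09 or av11, Fads1 was not called without av15, and neither Fads1 nor Acsl3 was called without av16. With only these 2 groups in the fit, both calls were lost too (adjusted p of 0.0789 for Fads1 and 0.0543 for Acsl3).

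The other 5 genes had adjusted p between 0.0606 and 0.582 in this comparison. Elovl5 was at 110, 168, 116 and 118 CPM with BSO, which include the 3 lowest livers of the series for this gene, and at 192, 337 and 185 CPM without it (log2 fold change -0.89, 95% interval -1.42 to -0.37, edgeR adjusted p = 0.0989), and its log2 fold change ran from -1.06 to -0.57 (without av15, adjusted p = 0.448) with each liver left out. Acsl1 was at 799, 1225, 841 and 907 CPM against 1452, 1966 and 1430 CPM (-0.78, -1.21 to -0.35, edgeR adjusted p = 0.0832). Acsl5 lay in a narrow band of 193 to 207 CPM with BSO, below 268, 338 and 245 CPM without it (-0.50, -0.76 to -0.24, edgeR adjusted p = 0.0606). Fads2 was at 236, 269, 214 and 223 CPM against 302, 460.2 and 423 CPM (-0.75, -1.26 to -0.24, edgeR adjusted p = 0.162). Elovl2 was at 278, 274, 311 and 289 CPM against 366, 346 and 371 CPM (-0.33, -0.80 to 0.15, edgeR adjusted p = 0.582). DESeq2 called 5 of the 7 genes here, all lower, adding Elovl5, Acsl1 and Acsl5. In this comparison no marker of any of the cell type lists was called by edgeR, and the summed hepatocyte markers overlapped (65300 to 80700 CPM with BSO, 69720 to 76730 CPM without). At an unadjusted p under 0.05 there were 2 endothelial, 2 cholangiocyte and 3 of 4 adipocyte markers, and the adipocyte median was -4.04 on the log2 scale. The adipocyte genes were highest in av14 on the no-Trp diet, where Cfd was at 11.1 CPM against at most 0.207 CPM in the other 2 livers of that group, and Fads1 and Acsl3 kept their calls without av14.

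Within Cse-/- mice the no-Cys diet was also compared with the no-Trp diet. The same libraries of the no-Trp diet serve as the control of both this comparison and the BSO comparison. All 3 synthetases and Fads1 fell on the no-Cys diet, 4 of the 7 genes, with 10.4% of all genes called and 5.35% lower. The log2 fold changes were -1.32 ± 0.182 (SE) for Acsl3 (edgeR adjusted p = 0.000259), -0.98 ± 0.207 (SE) for Acsl1 (0.0063), -0.82 ± 0.153 (SE) for Fads1 (0.00283) and -0.45 ± 0.123 (SE) for Acsl5 (0.0255). For these 4 genes the groups did not overlap, against 9.83% of all genes with the no-Cys group lower. The Acsl5 call was lost without av06, av07, av14 or av15 (adjusted p of 0.0508 to 0.119), and with only these 2 groups in the fit neither Acsl5 (0.0879) nor Acsl1 (0.0503) was called. Elovl5, one of the most strongly lowered genes between genotypes, was not called between diets (log2 fold change -0.32, 95% interval -0.85 to 0.20, edgeR adjusted p = 0.444). Its Cse-/- no-Cys livers, at 131 to 235 CPM, overlapped the no-Trp livers, at 185 to 337 CPM. Fads2 gave -0.55 (-1.06 to -0.04, edgeR adjusted p = 0.157) and Elovl2 -0.03 (-0.50 to 0.45, 0.956). In this comparison 3 of 8 hepatocyte, 3 of 8 blood cell and 1 of 5 cholangiocyte markers were lower. Of the 4 adipocyte markers 3 had an unadjusted p under 0.05, with a median of -4.07 on the log2 scale against the same no-Trp livers. The part of these shifts was not tested.

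The no-Cys diet and the no-Trp diet with BSO were compared directly in Cse-/- livers. By edgeR, 0 of the 7 genes were called, against 2.75% of all genes, and the groups overlapped for all 7, where 12.7% of all genes did not overlap. DESeq2 also called none. At an unadjusted p under 0.05 there were 2 genes in opposite directions. With BSO, Acsl3 was at 12.3 ± 2.21 CPM (SD, n = 4), against 9.07 ± 2.26 CPM (SD, n = 4) without cysteine, a log2 fold change of no-Cys over BSO of -0.45 (95% interval -0.81 to -0.08, edgeR adjusted p = 0.162). Elovl5 was at 128 ± 27.1 CPM with BSO against 190.0 ± 46.8 CPM (SD, n = 4 each), a log2 fold change of 0.57 (0.08 to 1.06, edgeR adjusted p = 0.183). For Fads1 the interval was -0.34 to 0.25 and for Acsl5 -0.19 to 0.29, which limits any difference between these diets to less than the estimated fall against the no-Trp diet. The intervals of Acsl1 (-0.60 to 0.20), Fads2 (-0.28 to 0.67) and Elovl2 (-0.14 to 0.74) were wider. Without av08, Elovl2 was called, with a log2 fold change of 0.53 in place of 0.30 (edgeR adjusted p = 0.0307). Summed cholangiocyte markers were lower on the no-Cys diet without overlap (16.4 to 28.8 against 36.4 to 48.9 CPM). The sums of the other cell types overlapped, with hepatocyte markers at 46180 to 73730 against 65300 to 80700 CPM. The part of these markers was not tested.

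**Figure D3:**
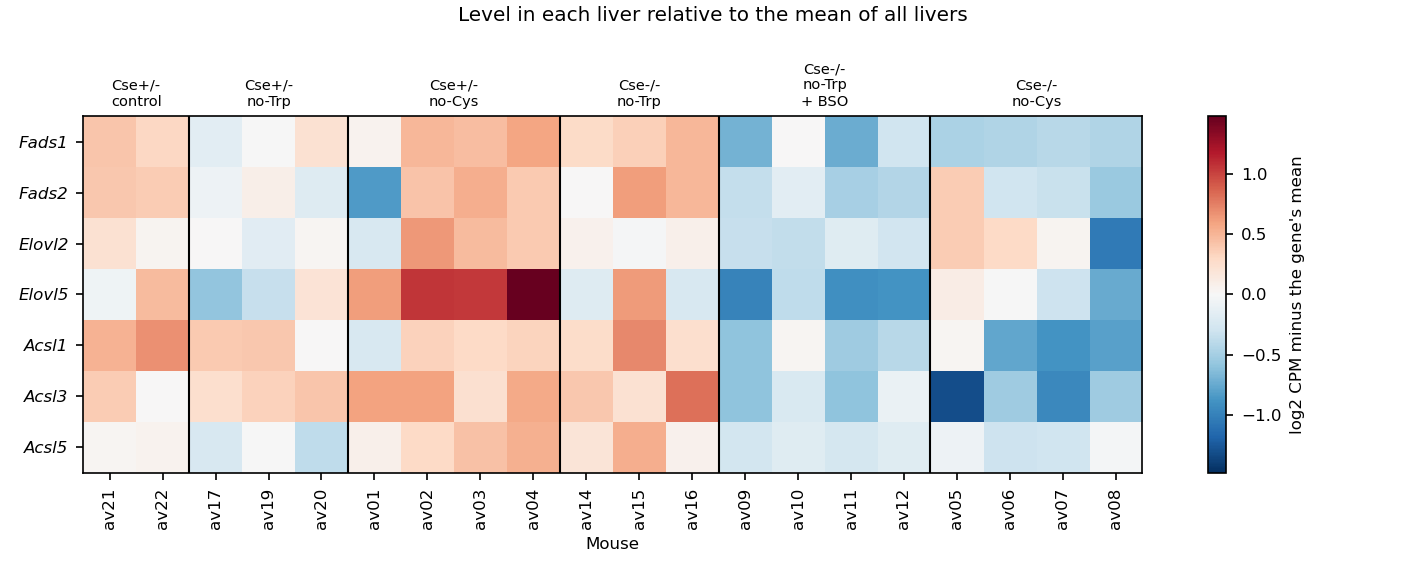
log2 CPM of each gene in each liver minus the mean of that gene over all 20 livers, with mice in columns, ordered by group, and genes in rows (red above, blue below the mean). The 4 Cse-/- no-Cys livers are below the mean for Fads1 and Acsl3 and all 4 Cse+/- no-Cys livers are above it for Elovl5, whereas av01 departs from its group in Fads2 and Acsl1.

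In Cse+/- mice, which can make cysteine, the diets had other effects. Elovl5 and Acsl5 rose on the no-Cys diet against the no-Trp diet, 2 of the 7 genes, and none fell, where 8.04% of all genes were called and 4.63% were higher. Elovl5 was at 334 to 607 CPM on the no-Cys diet and at 145, 173 and 250.5 CPM on the no-Trp diet, with no overlap and a log2 fold change of 1.28 ± 0.261 (SE, edgeR adjusted p = 0.00644), or 2.43-fold. Acsl5 rose from 180, 199 and 233 CPM to 246 to 338 CPM, a log2 fold change of 0.54 ± 0.125 (SE, edgeR adjusted p = 0.0127), a call that was lost without av20 (adjusted p = 0.0635) and with only these 2 groups in the fit (0.0592). A gap with the no-Cys livers higher was seen for these 2 genes and for 10.5% of all genes. The 5 other genes gave log2 fold changes between -0.07 and 0.39. Of 6 endothelial markers 2 were lower on the no-Cys diet, and the 4 adipocyte markers, of which 2 had an unadjusted p under 0.05, had a median of -3.28 on the log2 scale and summed to 5.43 to 20.2 against 34.2 to 40.9 CPM. Their part was not tested. The high Elovl5 of Cse+/- no-Cys livers entered the genotype comparison as well. The Cse-/- no-Cys livers, at 190.0 ± 46.8 CPM (SD, n = 4), were close in level to Cse+/- livers on the no-Trp diet (189 ± 54.6 CPM, SD, n = 3), and 2 of the 4, at 218 and 235 CPM, lay between the control livers at 209 and 302 CPM.

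Against the control diet, with only 2 livers, none of the 7 genes passed the threshold of the main test on either diet in Cse+/- mice. Without dietary cysteine 0 genes were called by edgeR and 0 by DESeq2, against 2.18% of all genes by edgeR, and 2 had an unadjusted p under 0.05. The groups did not overlap for 3 of the 7 genes, as for 25.6% of all genes. Those with an unadjusted p under 0.05 were Elovl5 (log2 fold change 0.85, 95% interval 0.23 to 1.47, edgeR adjusted p = 0.138, or 0.0363 and called without the filter on low counts) and Acsl5 (0.30, 0.00368 to 0.60, edgeR adjusted p = 0.291). On the no-Trp diet 0 genes were called by either tool and 0 had an unadjusted p under 0.05, with 0.0474% of all genes called, and the groups did not overlap for 5 of the 7 genes, against 27.4% of all genes. The log2 fold changes on the no-Trp diet were between -0.44 and 0.13, with adjusted p of 0.609 to 0.901. Control livers had the highest group mean of Acsl1, at 1715 and 1931 CPM. Fads1 was at 551 and 514 CPM and Acsl3 at 20.5 and 15.9 CPM in the control livers, levels that every Cse-/- no-Cys liver and every BSO liver were below.

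Across the 20 livers the 7 genes varied together to different degrees. The points of these correlations share libraries and groups, so that Pearson's r of log2 CPM is given as a description. It was highest between Fads1 and Acsl3 (0.831), Fads1 and Acsl1 (0.794) and Fads2 and Acsl1 (0.793), and lowest between Elovl2 and Acsl3 (0.239) and Fads2 and Acsl3 (0.331). Between the paired desaturases it was 0.690, and between the elongases 0.666. Among 12582 genes with a mean of at least 1 CPM, the 3 with a pattern most like that of Fads1 were Rasgrp3 (0.909), Acat2 (0.904) and Gm3571 (0.903). Acat2, a cytosolic thiolase of cholesterol synthesis, was also the gene most like Acsl3 (0.927), followed by Ypel5 (0.892) and Socs4 (0.888). For Elovl5 they were Cs, citrate synthase (0.922), Spon2 (0.915) and Gm4952 (0.876), and for Elovl2 they were Elovl3, another elongase (0.847), Lama2 (0.806) and Dnase1l3 (0.794). The genes most like Acsl1 were G6pc, the glucose-releasing phosphatase (0.892), Slc25a25 (0.874) and Slc27a2, a very long-chain acyl-CoA synthetase (0.864). Fads2 was most like Abcd3, a peroxisomal fatty acyl-CoA transporter (0.870), Adipor2 (0.825) and Egln1 (0.819), and Acsl5 most like Sec14l2 (0.919), Lipa, lysosomal acid lipase (0.867), and Clstn3 (0.842).

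The genes around these 7 in the pathway were taken from lists, and are described by counts in the comparison of Cse-/- with Cse+/- livers on the no-Cys diet. Of all genes tested there, 23.8% were called, with 12.2% lower, and 48.8% of the calls were higher. Of 10 other desaturases and elongases tested, 4 fell and 1 rose. Scd1, which makes monounsaturated fatty acids, fell by 4.37 on the log2 scale (edgeR adjusted p = 0.000145), and Fads6, a desaturase-like gene of unassigned function, rose by 0.40 (0.0113). The other steps of the elongation cycle and the electron donors of the desaturases held 4 lower and 1 higher gene of 10. Cyb5r3, the reductase that passes electrons to cytochrome b5 and so to the desaturases, fell by 1.08 (edgeR adjusted p = 9.07e-06), and Hacd2, a dehydratase of the cycle, rose by 0.45 (0.000812). Their medians were -0.45 and -0.13 on the log2 scale, against -0.76 for the 7 genes and -0.01 for all genes. Within Cse-/- livers, none of the 10 other desaturases and elongases was called between the no-Cys and the no-Trp diet, with a median of -0.00714.

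Between genotypes on the no-Cys diet, where 23.8% of all genes were called, 2 of 10 other acyl-CoA synthetases fell and 1 rose. Acss2, the cytosolic acetyl-CoA synthetase, fell by 0.89 (edgeR adjusted p = 3.04e-05), whereas Slc27a4, a fatty acid transport protein with synthetase activity, rose by 0.45 (0.00274). Of 12 phospholipid acyltransferases 2 rose and none fell, with Agpat5 at 0.89 (edgeR adjusted p = 9.39e-05) and Agpat3 at 0.39 (0.00928). Both add a second acyl chain to lysophosphatidic acid. In peroxisomal beta-oxidation, which completes the synthesis of docosahexaenoic acid, 3 of 14 genes fell and 1 rose, with Abcd2, an importer of very long-chain acyl-CoA, at -2.38 (edgeR adjusted p = 0.000252) and Acox2, a bile acid and branched-chain oxidase, at 1.18 (0.000272). PUFA oxygenases, hydrolases and phospholipases were divided, with 3 of 12 higher and 3 lower. Among them Ephx1, a microsomal epoxide hydrolase, was the highest at 1.29 (edgeR adjusted p = 5.58e-05), and Ephx2, the soluble hydrolase of PUFA epoxides, the lowest at -0.51 (0.00892).

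**Figure D4:**
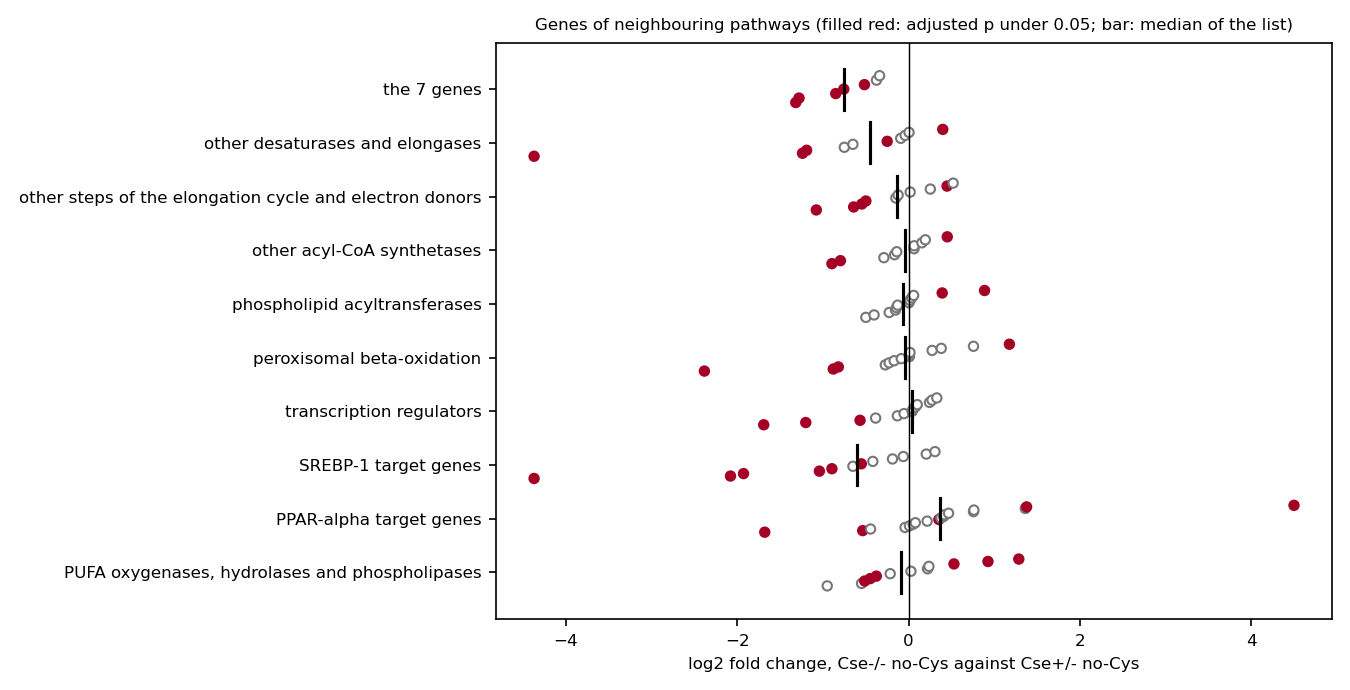
log2 fold change of each tested gene in Cse-/- against Cse+/- livers on the no-Cys diet, for the 7 genes and 9 lists of related genes, with filled red points for an edgeR adjusted p under 0.05 and a black bar at the median of each list. The 7 genes have the lowest median (-0.76), followed by the SREBP-1 targets (-0.60), and the PPAR-alpha targets have the highest (0.37).

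Among 13 transcription regulators of the pathway 3 fell and none rose: Srebf1, which encodes SREBP-1 (log2 fold change -1.69 ± 0.273 SE, edgeR adjusted p = 0.000225), Insig1, its retention factor and itself a target (-1.20 ± 0.240, 0.00131), and Srebf2 (-0.57 ± 0.145, 0.00793). Ppara (0.05, 95% interval -0.32 to 0.43), the liver X receptor gene Nr1h3 (0.10, -0.08 to 0.28) and Mlxipl, which encodes the carbohydrate response factor ChREBP (-0.38, -0.72 to -0.05, edgeR adjusted p = 0.0879), were not called. Of 12 SREBP-1 target genes outside the 7, 6 fell and none rose, between Scd1 (-4.37) and Acly (-0.55), with a median of -0.60. Of all genes 23.8% were called, with 12.2% lower. Scd1 and Acss2 also stand in lists described above. Within Cse-/- livers, on the no-Cys against the no-Trp diet, 1 of these 12 targets fell and 1 rose, with a median of -0.36. In Cse+/- livers, Fasn (1.07), Me1 (1.22) and Acss2 (0.63) were called higher on the no-Cys than on the control diet, and no target lower. The part of this reference level in the difference between genotypes was not tested. Between genotypes on the no-Cys diet, 3 of 18 PPAR-alpha targets rose and 2 fell, with a median of 0.37. The called genes lay between Fgf21, a hormone of the fasted liver (4.50, edgeR adjusted p = 0.000204), and Fabp1, the fatty acid binding protein of liver (-1.68, 0.00112). The study also lists Fgf21 among genes of the integrated stress response, which lack of amino acids triggers. In the BSO comparison, none of the 13 regulators was called by edgeR while 3 had an unadjusted p under 0.05. There 3 SREBP-1 targets fell, from Scd1 (-2.98, edgeR adjusted p = 0.0341) to Acacb, an acetyl-CoA carboxylase (-1.17, 0.0165), where 0.305% of all genes were called lower. There Srebf1 gave a log2 fold change of -0.64 (95% interval -1.23 to -0.05, edgeR adjusted p = 0.327) and Insig1 -0.84 (-1.37 to -0.31, 0.124). In Cse+/- livers on the no-Cys against the no-Trp diet, 6 of the 12 SREBP-1 targets rose and none fell, with a median of 0.64. Of all genes 4.63% were called higher, and the median was 0.01. Among the regulators, Srebf2 (0.64, edgeR adjusted p = 0.0181) and Scap (0.49, 0.0129) rose, and Srebf1 was not called (0.60, 0.209).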

How the data were processed

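Liver RNA was extracted with Trizol, and poly(A) mRNA libraries were sequenced as paired ends. The authors deposited raw read counts per gene, made with HISAT2 version 2.1.0 on GRCm38 and HTSeq version 0.11.0 per the submitters' processing notes. The columns of the count table are named by mouse, and were tied to groups through the list of mice in the study. Of 21 columns, 20 were used, and 1 that is not in that list was not. Totals of 11785740 to 57986121 counts per library set the precision. Of 46078 genes, 45143 were given a symbol, exon length and position from GENCODE vM21.

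The main test was edgeR 4.0.16 (R 4.3.3, limma 3.58.1) with TMM factors, filterByExpr (minimum count 10, minimum total 15), a mean per group over all 20 libraries, the quasi-likelihood test and Benjamini-Hochberg adjustment over 14759 genes at 0.05. SE is the log2 fold change divided by the root of F, and intervals are 95%. In the 25 pairs of libraries within a group, chi-square per gene was 9.6 to 64.2, so no replicate was a repeat of another of its group. Each library is a separate mouse. On simulated counts for Cse-/- against Cse+/- on the no-Cys diet, 62 of 100 genes changed 2-fold and 92 of 100 changed 4-fold were recovered among 14504 genes, with 7 false calls. Alternatives were DESeq2 1.42.0, upper-quartile or RLE factors in place of TMM, a fit of all genes with any count, a mean of at least 1 CPM, only the compared groups, an adjusted p of 0.01 and leaving out each mouse. Promoter windows are from RefSeq, GRCm38.p6. Figures were drawn with Python 3.11.15, numpy 2.4.6, pandas 2.3.3 and matplotlib 3.10.9.

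The 7 genes and all lists were chosen with earlier results of these data known. Named are the 7 genes, the called gene with the highest and the lowest log2 fold change of each list in the comparisons described, called regulators of transcription and others among the 13, and the 3 genes with the highest correlation with each of the 7. Named as well are single cell type markers and the SREBP-1 targets called against the control diet.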

Additional observations from a re-analysis of the deposited data

Results flagged for a closer look

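In groups of 4 mice, a liver stood apart from the other 3 in 5 of the 21 sets tested, where chance gives about 1 in 20. The measure is the gap to the nearest liver as a share of the range of the group. Cse+/- mouse av01 on the no-Cys diet was low for Fads2, with 169 CPM (share 0.841), and for Acsl1, with 1022 CPM (0.918). Cse-/- mouse av05 on the no-Cys diet was high for Acsl1, with 1229 CPM (0.906). Mouse av10, a Cse-/- mouse on the no-Trp diet with BSO, was high for Elovl5, with 168 CPM (0.852). Acsl3 was low in Cse+/- mouse av03 on the no-Cys diet, with 18.7 CPM (0.88).

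The genotype effect on the no-Cys diet differed from that on the no-Trp diet, by the edgeR interaction test, for 4 genes. The log2 difference was -1.19 for Fads1, -1.61 for Elovl5, -1.49 for Acsl3 and -0.99 for Acsl5, with adjusted p of 0.00436, 0.0154, 0.0031 and 0.0037.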

How the results depend on the processing

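RLE factors and a mean of at least 1 CPM kept the direction and the side of the threshold of all 63 log2 fold changes (7 genes in 9 comparisons). DESeq2 added 5 calls, no filter 6 and upper-quartile factors 1, while an adjusted p of 0.01 and a fit of only the compared groups lost 5 each. No factor set moved the median of all genes by 0.1. For BSO, upper-quartile factors changed the share of calls that were higher over all genes from 61.5% to 51.1%. The number of the 7 genes called with BSO was 2 and became 0 at an adjusted p of 0.01, 5 with DESeq2, 6 without a filter, 0 with only the compared groups, and 0 to 3 with a mouse left out (0 without av09 or av11, 1 without av15 or av16). In Cse-/- against Cse+/- on the no-Trp diet it was 1 with DESeq2 and 0 to 1 with a mouse left out (Acsl5 without av16, 0.56, adjusted p = 0.0458). For no-Cys against no-Trp in Cse-/- it was 2 with only the compared groups and 3 to 4 with a mouse left out. No-Cys against no-Trp with BSO gave 0 to 1 (Elovl2 without av08, 0.53, adjusted p = 0.0307). No-Cys against control in Cse+/- gave 1 without a filter (Elovl5). No-Cys against no-Trp in Cse+/- gave 1 at an adjusted p of 0.01, 1 with only the compared groups and 1 to 2 with a mouse left out. Cse-/- against Cse+/- on the no-Cys diet gave 5 to 6 and the interaction 4 to 6 with a mouse left out, and the interaction gave 3 to 5 under the other settings (Elovl5 lost at an adjusted p of 0.01, Acsl1 gained with DESeq2 and without a filter). Signs turned when a mouse was left out only for values that were not called. In Cse-/- against Cse+/- on the no-Trp diet the ranges were -0.0181 to 0.58 for Elovl5, -0.0183 to 0.23 for Acsl1 and -0.0243 to 0.28 for Acsl3. For no-Cys against no-Trp in Cse-/- they were -0.17 to 0.20 for Elovl2 and -0.48 to 0.00898 for Elovl5. For no-Cys against BSO they were -0.14 to 0.13 for Fads1, -0.0347 to 0.31 for Fads2 and -0.00010 to 0.0950 for Acsl5. Against control they were -0.00350 to 0.16 for Fads1 and -0.28 to 0.0758 for Fads2 on the no-Cys diet, and -0.0298 to 0.34 for Acsl3 on the no-Trp diet. For no-Cys against no-Trp in Cse+/- the range was -0.18 to 0.0566 for Acsl1. The cause of these changes was not tested. A control group left with 1 mouse was assumed to vary like the others. No paired analysis was possible because the columns carry mouse numbers and no replicate numbers shared between groups. Acsl3 had the fewest counts (107 to 884 per liver), so that counting error weighs most on its values, and the control diet had only 2 mice.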
